A study of Kandelia obovata with 24 samples.

Results

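The unigenes described here are 3 genes of the mangrove *Kandelia obovata* that carry a nuclear or transcriptional annotation: DN1524_c0_g1, DN5170_c1_g1 and DN2948_c0_g1. A unigene is a gene-level group of transcripts assembled from RNA-Seq reads without a reference genome. DN1524_c0_g1 was annotated with zinc ion binding, nucleus and DNA-templated regulation of transcription. DN5170_c1_g1 was annotated with DNA binding, nucleus and DNA-templated regulation of transcription. DN2948_c0_g1 was annotated with the nucleus and no molecular function. They are 3 of the 33344 unigenes in the expression table, and all 3 were among the 21523 unigenes with at least 1 TPM (a level of transcripts corrected for their length and scaled to the same total in every library) in at least 3 libraries. They were chosen by the connectivity measured in the study's weighted correlation network analysis (WGCNA), which put them among its top hub genes, the unigenes most connected to the others of their module. DN1524_c0_g1 was listed in module MEgrey, DN5170_c1_g1 in MEbrown and DN2948_c0_g1 in MEturquoise, beside 9 other hub unigenes. That network was built on differentially expressed genes (DEGs) from these same libraries, so the levels in the libraries labelled -4.1 ℃ and -5.3 ℃ are given as a description without a test. The ranks of connectivity were not computed again, so the unigenes just inside and just outside the choice are not analysed here.

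Regulators of transcription bind DNA or bind other proteins at a promoter, and they raise or lower the rate at which the genes downstream are transcribed. Zinc ions hold together the DNA-binding fold of several large families of plant transcription factors, but proteins with other functions bind zinc too. In *Arabidopsis thaliana*, abscisic acid (ABA) binds receptors in the cell, which inhibits a group of protein phosphatases and releases protein kinases that phosphorylate bZIP transcription factors in the nucleus. Cold acts in that species partly through another family of nuclear regulators, the CBF proteins, which switch on cold-responsive genes. The annotations of the 3 *K. obovata* unigenes name no family, so their place in these pathways is not known here.

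The RNA-Seq libraries came from leaves of 3-year-old *K. obovata* seedlings in an open field, sampled through a natural frost. Seedlings of CK received 0 mg of ABA per L and those of ABA-100 received a foliar spray of 100 mg of ABA per L. Leaves were taken on December 1 at 10.2 ℃, on December 2 at -4.1 ℃ and -5.3 ℃, and on December 3 at 9.7 ℃, and each of these 8 groups had 3 libraries. All seedlings met the same frost, so no group shows temperature apart from time, and the spray followed the sampling at 10.2 ℃. If the labels hold, the leaves labelled ABA-100 (10.2 ℃) were therefore taken before any ABA was applied. However, 4.94% of the unigenes tested differed between the libraries labelled ABA-100 (10.2 ℃) and CK (10.2 ℃), against 0.367% between CK (-4.1 ℃) and CK (10.2 ℃). The libraries also carry codes, A0, A4, B0 and B4 for CK and C0, C4, D0 and D4 for ABA-100 in the order 10.2, -4.1, -5.3 and 9.7 ℃, and the sources used here do not say what the codes mean. Whether each label fits its code, and so the treatment and the stage of each library, could not be checked. Groups are given as labelled throughout, and an effect of ABA, a difference between the seedlings that was there before the spray and an exchange of labels cannot be told apart. Leaves of the same seedlings were sampled at the successive stages, so libraries of different stages are repeated samples of the same plants. No label ties a library to its seedling, and the comparisons between stages treat the libraries as independent. Across unigenes, libraries of 1 group correlated at a Pearson r of 0.963 to 0.978 on the scale of log2(TPM + 1), and libraries of different groups at 0.929 to 0.973. The expression table pairs no unigene with a gene name, so markers of leaf tissue could not be checked.

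The 3 unigenes followed 3 different courses over the 8 groups. DN1524_c0_g1 was close to level in all libraries labelled CK and lower in all libraries labelled ABA-100, with its lowest levels at -4.1 ℃ and 9.7 ℃. DN2948_c0_g1 ran the other way, with its highest levels in ABA-100 at -4.1 ℃ and 9.7 ℃, but it came down to the levels of CK in the libraries labelled ABA-100 (-5.3 ℃). DN5170_c1_g1 was highest in CK (-5.3 ℃) and lowest in ABA-100 (10.2 ℃), and it spread widely between replicates of 1 group. Their mean levels over the 24 libraries were alike, at 16.2 TPM for DN1524_c0_g1, 14.2 TPM for DN5170_c1_g1 and 19.2 TPM for DN2948_c0_g1. These means were higher than those of 63.5%, 60.5% and 67.2% of the unigenes tested. The measurements are of whole leaf RNA, in which fewer cells of a type and less RNA per cell cannot be told apart.

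**Figure D1:**
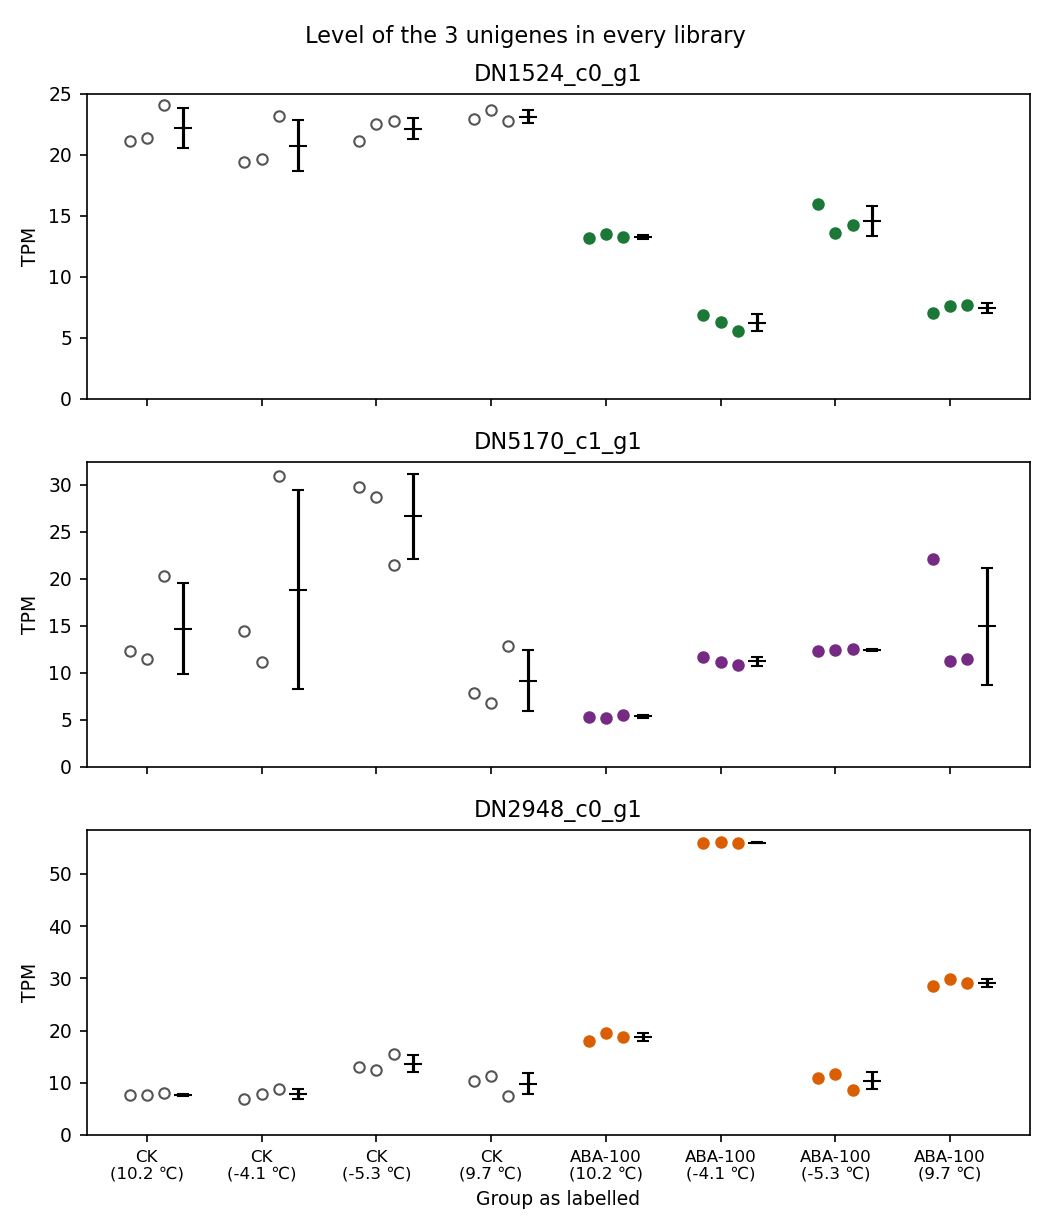
Level of each unigene in TPM (vertical axis, linear) in the 3 libraries of each group, with groups in the order of sampling along the horizontal axis. Open grey points are libraries labelled CK, filled points are libraries labelled ABA-100, and black bars are the group mean ± SD (n = 3). DN1524_c0_g1 does not overlap between the labelled treatments at any stage (at single stages, 35.0% to 48.7% of all unigenes do not). DN2948_c0_g1 peaks at 56.0 TPM in ABA-100 (-4.1 ℃), and the points of DN5170_c1_g1 lie far apart within several groups.

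DN1524_c0_g1, the zinc-binding regulator, kept a narrow range in the leaves labelled CK. It had 21.15, 21.39 and 24.11 TPM in the replicates at 10.2 ℃, and 19.45, 19.65 and 23.21 TPM at -4.1 ℃. At -5.3 ℃ it had 21.17, 22.51 and 22.77 TPM, and at 9.7 ℃ it had 22.97, 23.72 and 22.75 TPM. Over these 12 libraries the highest value was 1.24 times the lowest, and each CK group overlapped its neighbour in the order of levels. In ABA-100 it had 13.15, 13.49 and 13.25 TPM at 10.2 ℃. It had 6.89, 6.31 and 5.54 TPM at -4.1 ℃ and then 15.96, 13.56 and 14.26 TPM at -5.3 ℃. At 9.7 ℃ it had 7.01, 7.65 and 7.72 TPM, again near the level at -4.1 ℃. The 12 libraries labelled ABA-100 ran from 5.54 to 15.96 TPM (median 10.4 TPM) and those labelled CK from 19.45 to 24.11 TPM (median 22.6 TPM). No library of one labelled treatment thus reached the other. The share of all unigenes separated in this way over all libraries was not computed. At single stages, the labelled treatments did not overlap for 48.7% (10.2 ℃), 42.7% (-4.1 ℃), 42.6% (-5.3 ℃) and 35.0% (9.7 ℃) of all unigenes. From high to low, the order of the group means was CK (9.7 ℃), CK (10.2 ℃), CK (-5.3 ℃), CK (-4.1 ℃), ABA-100 (-5.3 ℃), ABA-100 (10.2 ℃), ABA-100 (9.7 ℃) and ABA-100 (-4.1 ℃). The 4 ABA-100 groups did not overlap their neighbours in that order, and the widest step was 1.78-fold, from ABA-100 (10.2 ℃) to ABA-100 (9.7 ℃). At the closest, 13.49 TPM in ABA-100 (10.2 ℃) stood against 13.56 TPM in ABA-100 (-5.3 ℃).

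DN2948_c0_g1, known only as a nuclear protein gene, had the widest course of the 3, with a highest group mean 7.25 times the lowest. In CK it had 7.56, 7.66 and 7.94 TPM at 10.2 ℃ and 6.97, 7.87 and 8.75 TPM at -4.1 ℃. It had 13.06, 12.37 and 15.50 TPM at -5.3 ℃ and 10.41, 11.38 and 7.51 TPM at 9.7 ℃. The CK libraries at -5.3 ℃ were thus above all 9 other CK libraries, which overlapped one another. In ABA-100 it had 17.92, 19.52 and 18.72 TPM at 10.2 ℃, already above every library labelled CK. At -4.1 ℃ the replicates had 55.92, 56.03 and 55.91 TPM, a spread of 0.0666 TPM (SD, n = 3), the narrowest of its 8 groups. At -5.3 ℃ it had 10.89, 11.67 and 8.70 TPM and at 9.7 ℃ it had 28.46, 29.94 and 29.01 TPM. ABA-100 (-5.3 ℃) was the only ABA-100 group inside the range of the CK libraries. The 4 groups with the highest means, ABA-100 at -4.1, 9.7 and 10.2 ℃ and CK (-5.3 ℃), did not overlap their neighbours in the order, whereas ABA-100 (-5.3 ℃) overlapped CK (9.7 ℃).

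DN5170_c1_g1, the DNA-binding regulator, had values that lay close together in some groups and far apart in others. In CK it had 12.35, 11.47 and 20.32 TPM at 10.2 ℃, and 14.45, 11.12 and 30.88 TPM at -4.1 ℃. It had 29.77, 28.72 and 21.49 TPM at -5.3 ℃ and 7.84, 6.78 and 12.86 TPM at 9.7 ℃. In each of these 4 groups replicate 3 stood apart from the other two, above them at 10.2, -4.1 and 9.7 ℃ and below them at -5.3 ℃. In ABA-100 it had 5.35, 5.19 and 5.53 TPM at 10.2 ℃, the lowest level of the series. It had 11.70, 11.15 and 10.81 TPM at -4.1 ℃ and 12.33, 12.42 and 12.51 TPM at -5.3 ℃. At 9.7 ℃ it had 22.10, 11.24 and 11.48 TPM, with replicate 1 apart from the others. Of the 7 steps between neighbours in the order of group means, groups overlapped in 5, and the 2 exceptions were ABA-100 (-5.3 ℃) above ABA-100 (-4.1 ℃) and CK (9.7 ℃) above ABA-100 (10.2 ℃).

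The share of the variance that lay between the groups differed accordingly. On the scale of log2(TPM + 1) it was 98.6% for DN1524_c0_g1 and 98.2% for DN2948_c0_g1, higher than in 99.6% and 99.4% of the unigenes tested. For DN5170_c1_g1 it was 76.6%, where the median unigene had 64.0%. The SD within groups was 0.0927, 0.147 and 0.393 for DN1524_c0_g1, DN2948_c0_g1 and DN5170_c1_g1 (log2), against a median of 0.169 over all unigenes tested. These figures describe the unigenes and are not tested, since hub genes were ranked on the same libraries.

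In the libraries labelled 10.2 ℃, which by the labels came before the spray, DN2948_c0_g1 was higher and DN5170_c1_g1 lower in ABA-100 than in CK. The question of this comparison is whether the seedlings of both labelled treatments started alike, and it holds only if the labels do. DN2948_c0_g1 had 18.7 ± 0.800 TPM in ABA-100 and 7.72 ± 0.197 TPM in CK (SD, n = 3 each), for a log2 fold change of 1.18 (SE, the standard error, 0.12, limma adjusted p = 2.41e-07). DN5170_c1_g1 had 5.36 ± 0.170 TPM in ABA-100 and 14.7 ± 4.88 TPM in CK (SD, n = 3 each), for a log2 fold change of -1.26 (SE 0.30, limma adjusted p = 0.00244). DN1524_c0_g1 had 13.3 ± 0.175 TPM in ABA-100 and 22.2 ± 1.64 TPM in CK (SD, n = 3 each), for a log2 fold change of -0.70 (SE 0.08, limma adjusted p = 1.12e-06). A DEG had to reach an adjusted p of 0.05 with a log2 fold change over 1 in size, so DN1524_c0_g1 missed the fold threshold. By this rule 2 of the 3 unigenes were DEGs, where 4.94% of all unigenes were (3.33% higher and 1.61% lower). The groups did not overlap for any of the 3, but neither did they for 48.7% of all unigenes. The network that chose the unigenes drew on these libraries too, so the tests here and at 9.7 ℃ are not independent support for a pattern.

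In the libraries labelled 9.7 ℃, after the frost, DN1524_c0_g1 and DN2948_c0_g1 differed between the labelled treatments in opposite directions and DN5170_c1_g1 did not pass the test. DN1524_c0_g1 had 7.46 ± 0.391 TPM in ABA-100 and 23.1 ± 0.509 TPM in CK (SD, n = 3 each), which is 3.10-fold lower or a log2 fold change of -1.51 (SE 0.08, limma adjusted p = 6.65e-11). DN2948_c0_g1 had 29.1 ± 0.748 TPM in ABA-100 and 9.77 ± 2.01 TPM in CK (SD, n = 3 each), which is 2.98-fold higher and a log2 fold change of 1.50 (SE 0.12, limma adjusted p = 1.18e-08). DN5170_c1_g1 had 14.9 ± 6.20 TPM in ABA-100 and 9.16 ± 3.25 TPM in CK (SD, n = 3 each), for a log2 fold change of 0.63 (SE 0.30, limma adjusted p = 0.145), and the groups overlapped. Without replicate 1 of ABA-100 (9.7 ℃) its log2 fold change was 0.33, and without replicate 3 of CK (9.7 ℃) 0.88. Here 2 of the 3 were DEGs, against 4.01% of all unigenes (3.59% higher and 0.423% lower), and their groups did not overlap, as for 35.0% of all unigenes.

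The difference between the labelled treatments changed from 10.2 ℃ to 9.7 ℃ for DN5170_c1_g1. Its log2 fold change went from -1.26 to 0.63, a difference of 1.89 (SE 0.42, limma adjusted p = 0.00305), where 4.54% of all unigenes passed the same test of the difference. For DN1524_c0_g1 the difference was -0.82 (SE 0.11, limma adjusted p = 5.31e-05), short of the fold threshold, and -1.04 and past it with median-of-ratios scaling. For DN2948_c0_g1 it was 0.33 (SE 0.16, limma adjusted p = 0.157), 0.0992 with median-of-ratios scaling, and 0.165 without replicate 3 of CK (9.7 ℃). Leaving out 1 library of the 4 groups at a time gave differences for DN5170_c1_g1 from 1.59, without replicate 1 of ABA-100 (9.7 ℃), to 2.14, without replicate 3 of CK (9.7 ℃).

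**Figure D2:**
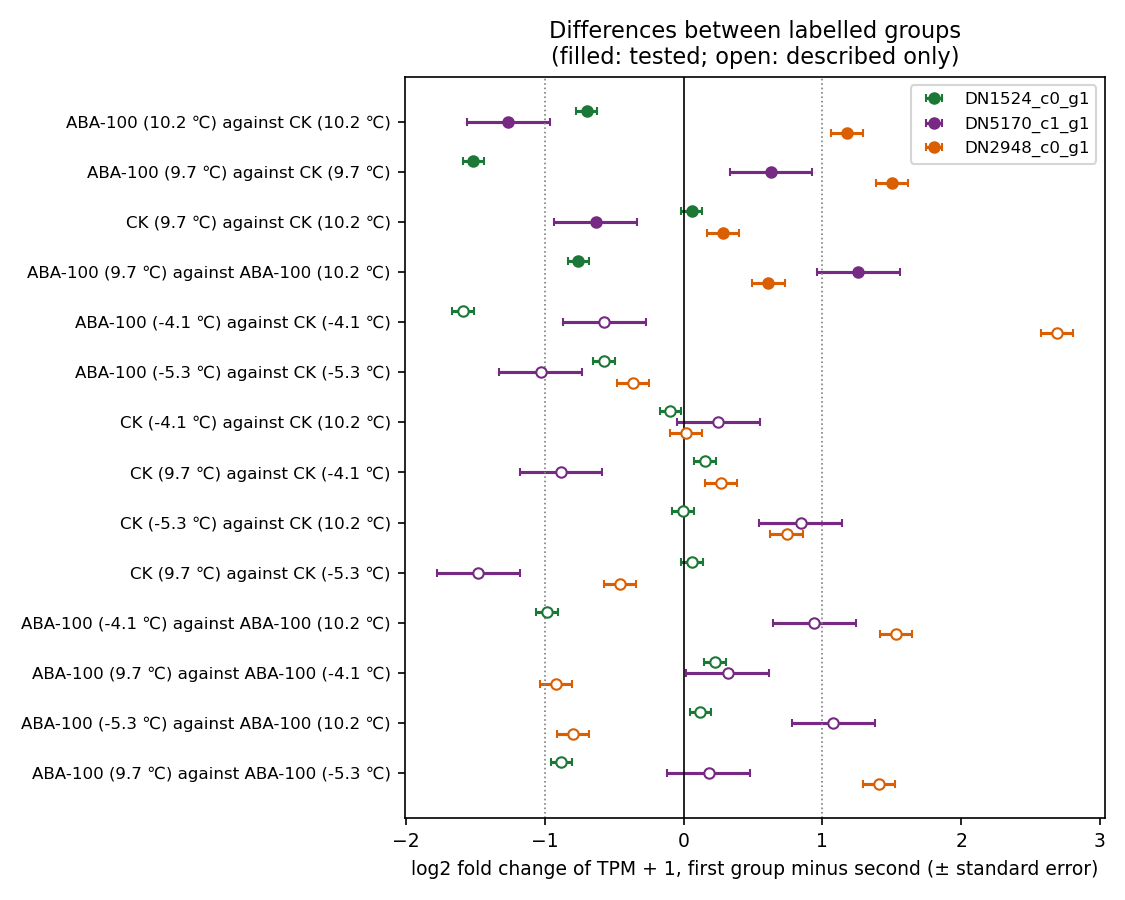
Log2 fold change of each unigene on the scale of log2(TPM + 1) (horizontal axis) in each of the 14 comparisons between groups (vertical axis), with bars of ± 1 standard error from limma. Filled points are the 4 comparisons among groups labelled 10.2 ℃ and 9.7 ℃ that were tested, open points are those described without a test, and dotted lines mark a log2 fold change of -1 and 1. DN1524_c0_g1 and DN2948_c0_g1 lie on opposite sides of 0 in the comparisons of ABA-100 with CK except at -5.3 ℃, where both lie below 0.

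Within CK, the leaves after the frost did not differ from those before it by the test for any of the 3 unigenes, where 0.994% of all unigenes passed. The log2 fold change of CK (9.7 ℃) against CK (10.2 ℃) was 0.06 for DN1524_c0_g1 (limma adjusted p = 0.716), -0.63 for DN5170_c1_g1 (limma adjusted p = 0.207) and 0.29 for DN2948_c0_g1 (limma adjusted p = 0.134). The groups overlapped for all 3. The value of DN5170_c1_g1 was -0.39 without replicate 3 of CK (10.2 ℃) and -0.88 without replicate 3 of CK (9.7 ℃). That of DN2948_c0_g1 was 0.18 without replicate 2 of CK (9.7 ℃) and 0.45 without replicate 3 (limma adjusted p = 0.0113), still short of the fold threshold. The standard errors were 0.08, 0.30 and 0.12, so a change of DN5170_c1_g1 of the size seen could not be separated from the spread between replicates.

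Within ABA-100, DN5170_c1_g1 was higher at 9.7 ℃ than at 10.2 ℃, where 2.67% of all unigenes passed the test. It had 14.9 ± 6.20 TPM at 9.7 ℃ and 5.36 ± 0.170 TPM at 10.2 ℃ (SD, n = 3 each), for a log2 fold change of 1.26 (SE 0.30, limma adjusted p = 0.00375). This call rested on replicate 1 of ABA-100 (9.7 ℃), without which the log2 fold change was 0.96 (limma adjusted p = 0.0312), under the fold threshold. DN1524_c0_g1 had a log2 fold change of -0.76 (SE 0.08, limma adjusted p = 1.79e-06) and DN2948_c0_g1 of 0.61 (SE 0.12, limma adjusted p = 0.000674), both short of the fold threshold. For all 3 unigenes the libraries at 9.7 ℃ did not overlap those at 10.2 ℃, as for 42.7% of all unigenes.

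At -4.1 ℃ the labelled treatments stood farther apart for DN2948_c0_g1 than at any other stage. DN1524_c0_g1 was 3.32-fold lower in ABA-100, a log2 fold change of -1.59 (SE 0.08), close to its -1.51 at 9.7 ℃. Which of these was the larger turned with the scaling, since median-of-ratios scaling gave -1.48 at -4.1 ℃ and -1.57 at 9.7 ℃. DN2948_c0_g1 was 7.12-fold higher, a log2 fold change of 2.69 (SE 0.12) and larger in size than in 99.2% of the unigenes tested. For DN5170_c1_g1 the groups overlapped, and its log2 fold change was -0.57 (SE 0.30), or -0.16 without replicate 3 of CK (-4.1 ℃). The groups did not overlap for 2 of the 3 unigenes, where 42.7% of all unigenes did not, and 6.26% of all unigenes passed the rule for DEGs.

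At -5.3 ℃ all 3 unigenes were lower in ABA-100 than in CK. The log2 fold change was -0.57 (SE 0.08) for DN1524_c0_g1, -1.03 (SE 0.30) for DN5170_c1_g1 and -0.36 (SE 0.12) for DN2948_c0_g1. The groups did not overlap for any of the 3, and the same held for 42.6% of all unigenes, with 34.3% lower and 8.31% higher in ABA-100. DN2948_c0_g1 was thus higher in ABA-100 than in CK at the other 3 stages and lower at this one. Its difference at -5.3 ℃ shrank to -0.19 with median-of-ratios scaling and to -0.17 with quantile normalization. The value for DN5170_c1_g1 fell short of the fold threshold, at -0.946, without replicate 1 of CK (-5.3 ℃), and at -0.971 without replicate 2.

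From stage to stage within CK, DN1524_c0_g1 was close to level, with log2 fold changes of -0.09 at -4.1 ℃ and -0.00247 at -5.3 ℃ against 10.2 ℃ (SE 0.08 each), and its groups overlapped. At -5.3 ℃ DN5170_c1_g1 and DN2948_c0_g1 were above their levels at 10.2 ℃ in CK, by log2 fold changes of 0.84 (SE 0.30) and 0.74 (SE 0.12), and for neither did the groups overlap (26.1% of all unigenes did not). Without replicate 3 of CK (10.2 ℃) the value of DN5170_c1_g1 was 1.09. At 9.7 ℃ against -5.3 ℃ in CK, DN5170_c1_g1 had a log2 fold change of -1.48 (SE 0.30), larger in size than in 99.0% of all unigenes, and DN2948_c0_g1 one of -0.46 (SE 0.12). The libraries did not overlap for either, as for 29.7% of all unigenes.

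Within ABA-100, the libraries labelled -4.1 ℃ and -5.3 ℃ were unlike each other. Against ABA-100 (10.2 ℃), DN2948_c0_g1 had a log2 fold change of 1.53 at -4.1 ℃ and -0.80 at -5.3 ℃ (SE 0.12 each). DN1524_c0_g1 had -0.98 at -4.1 ℃ and 0.12 at -5.3 ℃ (SE 0.08 each). DN5170_c1_g1 had 0.94 and 1.08 (SE 0.30 each), so it was above its level at 10.2 ℃ in both groups. None of the 3 unigenes overlapped between either group and ABA-100 (10.2 ℃), as for 42.5% of all unigenes at -4.1 ℃ and 32.9% at -5.3 ℃. Toward 9.7 ℃, DN2948_c0_g1 had -0.92 from -4.1 ℃ and 1.41 from -5.3 ℃, and DN1524_c0_g1 had 0.23 and -0.88. DN5170_c1_g1 had 0.32 and 0.18 (SE 0.30 each), with groups that overlapped in both comparisons.

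The median unigene was itself shifted by over 0.1 (log2) in 4 of these comparisons. It lay at -0.14 in ABA-100 against CK at 10.2 ℃, at -0.15 in the same comparison at -5.3 ℃, at 0.16 in ABA-100 from 10.2 ℃ to 9.7 ℃, and at 0.14 from -5.3 ℃ to 9.7 ℃. With median-of-ratios scaling, which centres the libraries on the typical unigene, the log2 fold changes between the labelled treatments at 10.2 ℃ were -0.53 for DN1524_c0_g1, -1.11 for DN5170_c1_g1 and 1.34 for DN2948_c0_g1. At -5.3 ℃ they were -0.40, -0.85 and -0.19. In ABA-100 from 10.2 ℃ to 9.7 ℃ they were -0.94, 1.09 and 0.42, and from -5.3 ℃ to 9.7 ℃ -1.03, 0.02 and 1.25. No direction turned with this scaling in these comparisons, but with quantile normalization DN5170_c1_g1 from -5.3 ℃ to 9.7 ℃ was at -0.015.

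DN1524_c0_g1 and DN2948_c0_g1 mirrored each other over the ABA-100 groups, where the orders of their means were reversed, but not over the CK groups. From CK (10.2 ℃) to CK (-5.3 ℃) the mean of DN2948_c0_g1 rose 1.77-fold, while that of DN1524_c0_g1 was 0.997 times its level. The ratio of DN2948_c0_g1 to DN1524_c0_g1 within a library was 0.348 ± 0.0164 in CK (10.2 ℃), 0.379 ± 0.0211 in CK (-4.1 ℃), 0.616 ± 0.0656 in CK (-5.3 ℃) and 0.421 ± 0.0798 in CK (9.7 ℃) (SD, n = 3 each). In ABA-100 it was 1.41 ± 0.0424 at 10.2 ℃, 9.03 ± 0.996 at -4.1 ℃, 0.718 ± 0.129 at -5.3 ℃ and 3.91 ± 0.151 at 9.7 ℃ (SD, n = 3 each). DN1524_c0_g1 was thus the more abundant of the pair in every CK library and in ABA-100 (-5.3 ℃), and DN2948_c0_g1 in the other 9 libraries labelled ABA-100. The Pearson correlation of their log2(TPM + 1) over the 24 libraries was -0.902 and the Spearman correlation -0.721, as a description over libraries that share groups. With DN2948_c0_g1, 0.0139% of all unigenes had a lower Pearson correlation than DN1524_c0_g1 did. With DN1524_c0_g1, 0.720% had a lower one than DN2948_c0_g1 did. The opposition lay between groups, since the correlation was -0.922 over the 8 group means and 0.310 over the deviations of the libraries from them. ABA-100 (-5.3 ℃) departed from it in part, with both unigenes under their CK levels of the same stage.

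**Figure D3:**
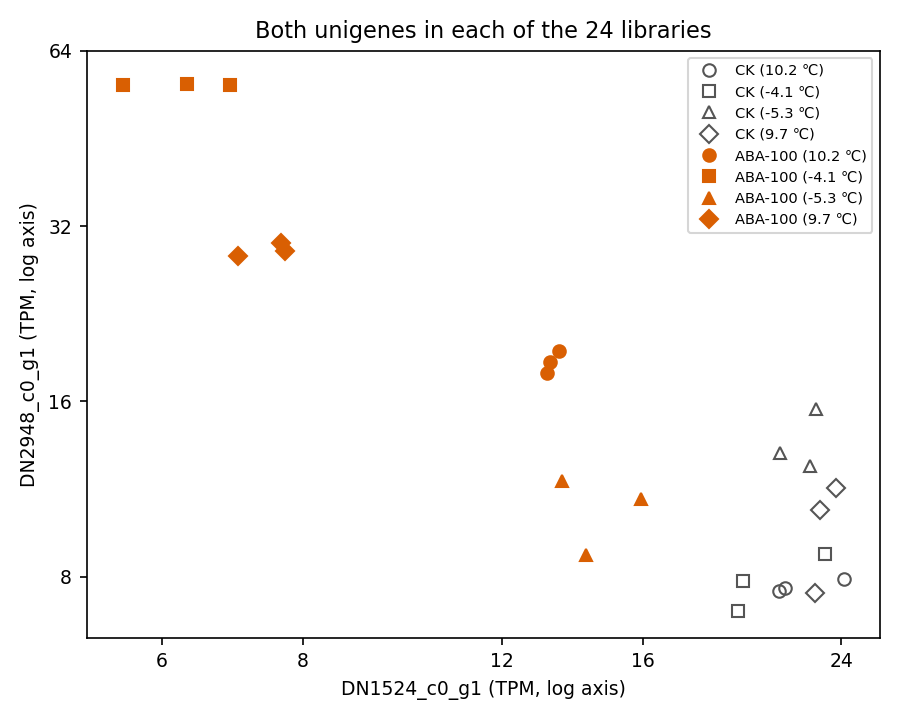
Level of DN2948_c0_g1 (vertical axis, TPM, log scale) against that of DN1524_c0_g1 (horizontal axis, TPM, log scale), with 1 point for each of the 24 libraries, open for CK and filled for ABA-100. The 3 libraries labelled ABA-100 (-4.1 ℃) lie at the upper left, at 5.54 to 6.89 TPM of DN1524_c0_g1 and 55.91 to 56.03 TPM of DN2948_c0_g1, and the libraries labelled CK gather at the lower right.

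DN5170_c1_g1 went with neither of them. Its Pearson correlation over the 24 libraries was 0.232 with DN1524_c0_g1 and -0.184 with DN2948_c0_g1. What set it apart from both was the spread between replicates of 1 group, which it shared with other unigenes. Its SD within groups (log2) was higher than that of 76.2% of the unigenes tested. Over the deviations from the group means, 79 unigenes correlated with DN5170_c1_g1 at r above 0.9 and 29 at r below -0.9, while no unigene did so with DN1524_c0_g1 or DN2948_c0_g1. Among them were the MEbrown hub unigenes DN7698_c0_g1, an anchored component of the plasma membrane (r = 0.921), and DN8109_c0_g1, an integral component of membrane (r = 0.921). DN7864_c0_g1, annotated with peroxidase activity, calcium ion binding and oxidoreductase activity on NAD(P)H, had an r of 0.875. The libraries that were high in their group for DN5170_c1_g1 thus tended to be high for the other 3 hub unigenes of MEbrown.

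The libraries that stood apart for DN5170_c1_g1 were also the least like their group over all unigenes, by small margins. The library with the lowest mean correlation to its own group was replicate 3 in 7 groups and replicate 1 in ABA-100 (9.7 ℃), at r of 0.963 to 0.974. In the 4 CK groups and in ABA-100 (9.7 ℃) this was the library in which DN5170_c1_g1 lay away from the other replicates. Its mean r was 0.971 in CK (10.2 ℃), against 0.973 for both other replicates, and 0.963 in CK (-4.1 ℃), against 0.968 for both. In ABA-100 at 10.2, -4.1 and -5.3 ℃ replicate 3 was the least correlated too, but DN5170_c1_g1 varied little there (SD 0.170, 0.449 and 0.0900 TPM, n = 3 each). Without the least correlated library of each group, a choice made after seeing the data, its log2 fold change was -1.04 at 10.2 ℃, -0.14 at -4.1 ℃ and 0.58 at 9.7 ℃ between the labelled treatments. From 10.2 ℃ to -5.3 ℃ in CK it was 1.23, from -5.3 ℃ to 9.7 ℃ in CK -1.87, and from 10.2 ℃ to 9.7 ℃ in ABA-100 0.979. The part of these libraries' make-up in the spread of DN5170_c1_g1 was not tested.

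Trinity, the assembler, gave 3 more unigenes the DN number of DN5170_c1_g1, the first part of its name. They were in other read clusters, named c0 and c2, and none of them varied as widely between groups. The highest group mean was 1.80 times the lowest for DN5170_c2_g1, 1.26 times for DN5170_c0_g1 and 1.30 times for DN5170_c0_g2, against 4.98 times for DN5170_c1_g1. In CK, DN5170_c2_g1 was low in libraries that were high for DN5170_c1_g1 within their group at -4.1 ℃ and 9.7 ℃. It had 21.93, 20.68 and 19.61 TPM in CK (10.2 ℃), 18.18, 19.44 and 9.55 TPM in CK (-4.1 ℃), 9.95, 11.84 and 15.95 TPM in CK (-5.3 ℃) and 15.85, 15.88 and 9.75 TPM in CK (9.7 ℃). In replicate 3 of CK (-4.1 ℃), for example, DN5170_c1_g1 was at 30.88 TPM and DN5170_c2_g1 at 9.55 TPM. In ABA-100 it had 24.10, 21.57 and 22.16 TPM at 10.2 ℃, 11.13, 13.90 and 14.68 TPM at -4.1 ℃, 14.02, 13.00 and 14.51 TPM at -5.3 ℃ and 21.46, 15.84 and 16.58 TPM at 9.7 ℃. The pair correlated at r = -0.528 over the 24 libraries, lower than 97.0% of all unigenes did with DN5170_c1_g1, and at -0.606 over the deviations within groups. Replicate 1 of ABA-100 (9.7 ℃) was an exception, with both unigenes high. The other unigenes of this DN number varied less and correlated with DN5170_c1_g1 positively. DN5170_c0_g1 ranged from 17.68 to 26.17 TPM (r = 0.608) and DN5170_c0_g2 from 12.73 to 19.15 TPM (r = 0.572). Both had their highest group mean in CK (-5.3 ℃) and their lowest in ABA-100 (10.2 ℃), as DN5170_c1_g1 did. These means were 23.5 and 18.65 TPM for DN5170_c0_g1 and 18.1 and 13.9 TPM for DN5170_c0_g2. For DN5170_c2_g1 the same groups were the lowest (12.6 TPM) and the highest (22.6 TPM). Whether reads were split between the unigenes of this DN number is not known here.

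**Figure D4:**
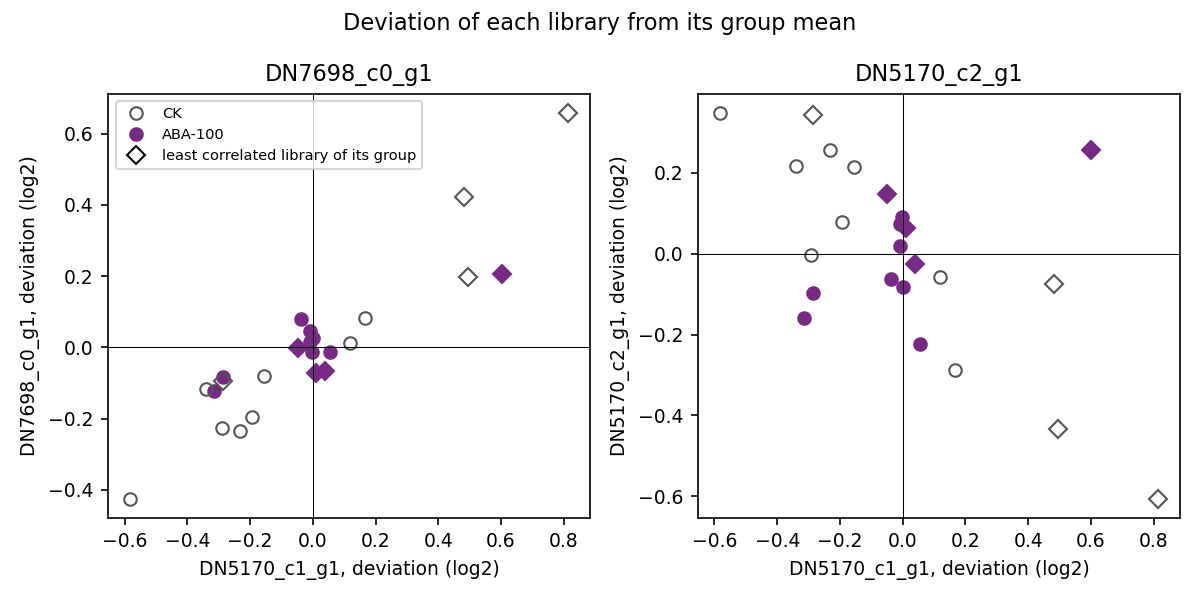
Deviation of each library from its group mean (log2 of TPM + 1) for DN5170_c1_g1 (horizontal axes) against that for DN7698_c0_g1 (left, vertical axis) and for DN5170_c2_g1 (right, vertical axis), over 24 libraries, open for CK and filled for ABA-100. Diamonds mark the least correlated library of each group, and these include the points farthest to the right, with r = 0.921 in the left panel and -0.606 in the right panel.

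DN2948_c0_g1 shared its DN number with 1 other unigene, DN2948_c1_g1, which was at 0 to 1.01 TPM and was not among the unigenes tested. It was listed at 0 in all replicates of CK (10.2 ℃), and its highest values, 1.01, 0.29 and 0.90 TPM, were in ABA-100 (9.7 ℃), not in ABA-100 (-4.1 ℃), where DN2948_c0_g1 peaked. No other unigene had the DN number of DN1524_c0_g1.

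The unigenes most like each of the 3 were sought by the Pearson correlation of log2(TPM + 1) over the 24 libraries, among 21522 others. DN2948_c0_g1 had 323 unigenes with r above 0.9 and 4 below -0.9. The most like it were DN3958_c0_g1 (r = 0.984), annotated with ferrochelatase activity, the enzyme that completes heme, then DN14581_c0_g1 (0.982), DN6045_c0_g1 (0.982), DN349_c0_g2 (0.981) and the protein phosphatase unigene DN477_c0_g1 (0.980). The steepest course among them was that of DN14581_c0_g1, from a mean of 0.807 TPM in CK (10.2 ℃) to 45.0 TPM in ABA-100 (-4.1 ℃). All 5 had their highest group mean in ABA-100 (-4.1 ℃), as DN2948_c0_g1 did. Most opposite were DN7592_c0_g1 (-0.944), DN2897_c0_g1 (-0.936) and DN3860_c1_g2 (-0.906).

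DN1524_c0_g1 had far fewer like it than opposite to it, with 8 unigenes at r above 0.9 and 169 below -0.9. The most like it were DN6535_c0_g1 (r = 0.945), DN7592_c0_g1 (0.945), DN22924_c0_g1 (0.927), DN3860_c1_g2 (0.923) and DN10129_c0_g1 (0.916). DN7592_c0_g1 and DN3860_c1_g2 were thus also among the 3 most opposite to DN2948_c0_g1. DN7592_c0_g1 ran from a mean of 36.1 TPM in CK (10.2 ℃) to 18.8 TPM in ABA-100 (-4.1 ℃), and DN3860_c1_g2 from 24.1 to 6.59 TPM in the same groups. Most opposite to DN1524_c0_g1 were DN2830_c0_g1 (-0.969), DN4654_c0_g2 (-0.967) and DN8433_c0_g3 (-0.960), each with its highest group mean in ABA-100 (-4.1 ℃).

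DN5170_c1_g1 had 21 unigenes with r above 0.9 and 4 below -0.9. The most like it were DN15293_c0_g1 (r = 0.946), DN579_c0_g1 (0.933), DN11435_c1_g1 (0.931), DN7698_c0_g1 (0.930) and DN7073_c0_g1 (0.928), and all 5 had their highest group mean in CK (-5.3 ℃) and their lowest in ABA-100 (10.2 ℃). DN15293_c0_g1, for example, had means of 216 TPM and 147 TPM in these groups. Most opposite were DN8047_c0_g3 (-0.906), DN1723_c1_g1 (-0.904) and DN3201_c0_g1 (-0.903), with the order of those 2 groups turned. DN1723_c1_g1 was an abundant unigene, with means of 2105 TPM in CK (-5.3 ℃) and 3524 TPM in ABA-100 (10.2 ℃). No name is paired with these unigenes other than the hub unigenes.

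Set against the 9 other hub unigenes, DN2948_c0_g1 and DN5170_c1_g1 correlated highly with those of their own modules. DN1524_c0_g1 did not do so with those of MEgrey. This is a description, since modules were made from such correlations. The study's network was unsigned, so strong negative correlations counted as connections too. The study does not say how MEgrey was formed, so likeness within it was not a given. DN2948_c0_g1 correlated at r of 0.969 to 0.984 with the other 4 hub unigenes of MEturquoise, which stand for ferrochelatase, a protein serine/threonine kinase, a protein phosphatase and sphingolipid metabolism. DN5170_c1_g1 correlated at 0.869 to 0.930 with the other 3 of MEbrown. DN1524_c0_g1 correlated at -0.093 with the MAP kinase kinase kinase unigene DN3196_c0_g1 and at 0.492 with the phenylalanine ammonia-lyase unigene DN13229_c0_g1 of MEgrey. With the 4 MEturquoise hub unigenes other than DN2948_c0_g1 it correlated at -0.927 to -0.890.

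**Figure D5:**
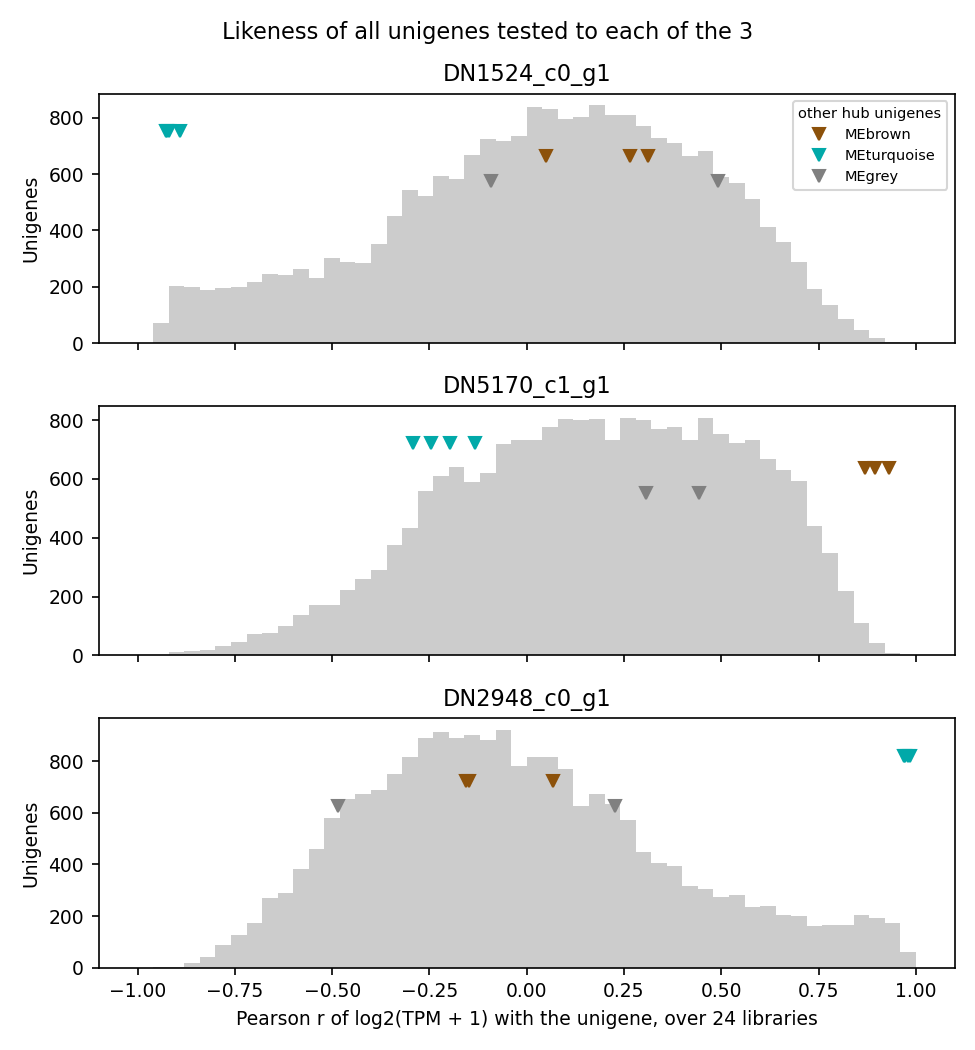
Distribution of the Pearson correlation with each of the 3 unigenes (horizontal axes, r over 24 libraries on log2(TPM + 1)) over the 21522 other unigenes tested (vertical axes, number of unigenes), with triangles for the 9 other hub unigenes, brown for MEbrown, turquoise for MEturquoise and grey for MEgrey, at heights that carry no value. The MEturquoise hub unigenes lie at 0.969 to 0.984 for DN2948_c0_g1 and at -0.927 to -0.890 for DN1524_c0_g1.

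Between the labelled treatments, 3 of the 4 other hub unigenes of MEturquoise were DEGs in the direction of DN2948_c0_g1 at 10.2 ℃ and at 9.7 ℃. They were DN3958_c0_g1, DN8005_c0_g2 and DN477_c0_g1, with log2 fold changes of 1.27, 1.19 and 1.16 at 10.2 ℃ and of 1.57, 1.52 and 1.17 at 9.7 ℃. The protein kinase unigene DN3221_c0_g1 had 0.79 and 0.87, short of the fold threshold. Of the 9 other hub unigenes, 3 were thus higher in ABA-100 at 10.2 ℃, against 3.33% of all unigenes, and 1 was lower (DN7698_c0_g1, -1.60), against 1.61%. At 9.7 ℃ 3 were higher, against 3.59% of all unigenes, and none was lower, against 0.423%. From 10.2 ℃ to 9.7 ℃, no hub unigene of MEturquoise was a DEG in either labelled treatment. In ABA-100 1 of the 9 was a DEG, DN7698_c0_g1 of MEbrown (1.38), against 2.67% of all unigenes, and in CK 1 of the 9, DN13229_c0_g1 (-1.27, limma adjusted p = 0.049), against 0.994%. The hub unigenes were chosen on these libraries, so nothing is read from these counts. The median log2 fold change of the 9 was -0.38 at 10.2 ℃ and 0.60 at 9.7 ℃ between the labelled treatments, against -0.14 and 0.04 over all unigenes tested.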

How the data were processed

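The authors sequenced RNA from leaves of *K. obovata*, with 3 libraries in each of 8 groups. Paired-end reads were trimmed by the authors (SeqPrep, Sickle) and assembled de novo (Trinity), and RSEM was used to estimate abundance. The deposited values are TPM. The authors scaled them for transcript length and to a common total per library (999999 to 1000001), so the depth behind a value is unknown and no counting error is given. The aligner's settings are not given in the sources used here.

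Groups follow the deposited labels. The 21523 unigenes that reached 1 TPM in 3 or more libraries were put on the scale of log2(TPM + 1), which understates changes at low levels. The model of limma 3.58.1 in R 4.3.3 held 1 mean for each group, used all 24 libraries and moderated the variance with a trend. Benjamini-Hochberg adjustment ran across the whole set of unigenes. The thresholds for DEGs, an adjusted p of 0.05 and a log2 fold change of 1 in size, are those of the study, whose own test needs read counts and was not repeated.

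The 3 unigenes, the other hub unigenes and the lists were chosen with earlier results of these data known. Named unigenes are the 12 hub unigenes and those with the Trinity DN number of any of the 3. For each of the 3, the 5 highest and 3 lowest by Pearson correlation over 24 libraries are named too. Leaves came from the same seedlings at each stage, but nothing ties a replicate number to a seedling, so the model treats stages as independent and p-values measure the spread between these libraries only. The alternatives were other scalings, pseudocounts and filters, a replicate block, fits of the compared groups alone and each replicate left out. The code was tested on simulated data. Figures were made with matplotlib 3.10.9.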

Additional observations from a re-analysis of the deposited data

Results flagged for a closer look

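The difference between the labelled treatments was not the same in the libraries labelled 10.2 ℃ and 9.7 ℃ for DN5170_c1_g1. Its log2 fold change of ABA-100 against CK was -1.26 at 10.2 ℃ and 0.63 at 9.7 ℃. The test of the difference gave 1.89 (SE 0.42, limma adjusted p = 0.00305). At 10.2 ℃ 3 of 3 ABA-100 libraries lay below every CK library, where 48.7% of all unigenes did not overlap. At 9.7 ℃ the groups overlapped. The network that chose this unigene drew on these libraries too, so the test is not independent support for a pattern. Without the least correlated library of each group the difference was 1.62.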

How the results depend on the processing

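Over the tested comparisons of the 3 unigenes and their counts of DEGs, 291 of the values under the alternatives were classed as kept, 5 gained a call or a larger count and 8 lost one. A fold change was kept if its direction and its side of the thresholds held, and a count if it stayed within a set factor of the main count. The kept values thus include a count that went from 863 to 1265 (ABA-100 against CK at 9.7 ℃, pseudocount of 0.1 TPM). Among the tested fold changes, no direction turned. DN1524_c0_g1 passed the test of the difference between 9.7 ℃ and 10.2 ℃ with median-of-ratios scaling (-1.04) and with quantile normalization (-1.05). DN5170_c1_g1 in ABA-100 from 10.2 ℃ to 9.7 ℃ did not pass without the least correlated library of each group (0.979), and leaving out 1 replicate at a time gave 0.960 to 1.42. The number of DEGs went from 1064 to 1599 (ABA-100 against CK at 10.2 ℃), from 214 to 359 (CK from 10.2 ℃ to 9.7 ℃) and from 575 to 902 (ABA-100 from 10.2 ℃ to 9.7 ℃) with a pseudocount of 0.1 TPM. Among unigenes with a mean of at least 10 TPM, which are fewer, it was 385 at 10.2 ℃ and 328 at 9.7 ℃ between the labelled treatments, 99 in CK, 151 in ABA-100 and 312 for the difference between stages. In a fit of the compared groups alone it was 120 in CK, where fewer libraries set the spread. With median-of-ratios scaling the split of higher against lower DEGs moved from 717 and 347 to 857 and 240 between the labelled treatments at 10.2 ℃, from 382 and 193 to 240 and 238 in ABA-100 from 10.2 ℃ to 9.7 ℃, and from 707 and 270 to 411 and 396 for the difference between stages. With quantile normalization it moved from 772 and 91 to 594 and 155 at 9.7 ℃. With a replicate block, the counts were 1068, 862, 213 and 581 in the 4 comparisons and 982 for the difference, and no call of the 3 unigenes changed. Deviations of libraries with the same number correlated at -0.00747 to 0.0812 between groups, so the numbers did not pair the libraries. The most alike unigenes depended on the measure. Of the 5 named for DN1524_c0_g1, DN5170_c1_g1 and DN2948_c0_g1, 0, 1 and 1 were among the top 5 by the Spearman correlation and 2, 0 and 3 by the correlation of group means. The depth behind TPM is unknown, and 3 libraries a group limit every comparison.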
